A study of Mus musculus with 34 samples.

Results

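The chromatin of a 3 Mb interval of mouse chromosome 13, from 67 to 70 Mb (GRCm38), was examined in embryonic stem cells by ChIP-seq of H3K9me3 and H3K27ac. Its members are all regions of the deposited tables whose start lies in that interval. There are 302 of 248336 regions in the list shared by 3 of the tables, and 138 of 96988 in the separate list used for H3K27ac in independent cell lines. The interval holds 25 zinc finger genes of the Rsl cluster and 16 other protein-coding genes of GENCODE M21, as well as a stretch without protein-coding genes, the first 400 kb from 68 Mb on, with 33 regions. It is called the gene-free stretch in what follows. The part without protein-coding genes is wider, from the end of BC048507 at 67863925 to the start of Mtrr at 68560780.

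Cells of 4 genotypes were compared, all grown in serum with LIF and the inhibitors PD0325901 and CHIR99021. B6 is the inbred strain C57BL/6J and D2 the inbred strain DBA/2J. B6-13D2, or B6.D2-(rs30079041-rs51756099)/Bakr, carries a D2 segment of chromosome 13 on the B6 background, and D2-13B6 carries a B6 segment on the D2 background. The sample labels write the latter D2.B6-(rs29224292-rs13469455)/Bakr, while the series description gives it another end marker, so the end of its B6 segment is uncertain. Whether this line carries B6 or D2 sequence at the gene-free stretch and from 69 to 70 Mb is not known here. Differences with the D2 segment on the D2 background mean D2 relative to D2-13B6, and there they compare 2 lines rather than 2 alleles. For each mark, the first set of libraries holds 3 independently derived B6 lines and 3 such D2 lines as biological replicates. The second set repeated 1 line per genotype as technical replicates: line 5-1 for B6, line 5-5 for D2, line QJ 6-1 for B6-13D2 and line XE 2-4 for D2-13B6. In H3K9me3, B6 and D2-13B6 have n = 3 and the other two lines n = 2. In H3K27ac each line has 3 libraries, but 1 pair per line had a chi-square per degree of freedom of at most 1 (0.905 to 0.967) and was summed into 1 sample, which leaves n = 2. The other pairs of B6, D2 and B6-13D2 were kept apart at 1.005 to 1.027, so over all regions these libraries differed by little more than sampling noise. At the gene-free stretch, samples of B6-13D2 (141 and 203.7 CPM of H3K27ac) and of D2 (124.7 and 169.7 CPM) differed by more. Those of B6 did not (27.1 and 27 CPM). With 1 line per genotype, tests in the repeated libraries compare 1 line with another. Their p-values measure only the spread between libraries of the same line.

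H3K9me3 is the trimethylated form of lysine 9 of histone H3 and marks heterochromatin. In embryonic stem cells much of it is laid down over retrotransposons and over the 3' exons of zinc finger genes by KRAB zinc finger proteins, which bind DNA through their fingers and recruit the corepressor TRIM28 and the methyltransferase SETDB1. H3K27ac, acetylation of lysine 27, marks active promoters and enhancers. KRAB zinc finger genes lie in tandem clusters that grow by duplication and differ between mouse strains. The cluster examined here contains Rsl1, named regulator of sex-limitation, which is known for repressing male-biased liver genes, and its paralogs.

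Sequences are shown for regions with large differences in H3K9me3, namely repeated copies within the gene-free stretch and a mostly repetitive region in the zinc finger cluster. The intergenic region chr13:68055421-68055693 gained among the most H3K9me3 of all members with the D2 segment on the B6 background. It is shown with another region of the same stretch, chr13:68162127-68162399, which lies 106.7 kb away on the opposite strand and is 98.5% identical over all 273 bases (RefSeq sequence, GRCm38.p6). Capitals mark the 4 bases at which the copies differ.
chr13:68055421-68055693, plus strand: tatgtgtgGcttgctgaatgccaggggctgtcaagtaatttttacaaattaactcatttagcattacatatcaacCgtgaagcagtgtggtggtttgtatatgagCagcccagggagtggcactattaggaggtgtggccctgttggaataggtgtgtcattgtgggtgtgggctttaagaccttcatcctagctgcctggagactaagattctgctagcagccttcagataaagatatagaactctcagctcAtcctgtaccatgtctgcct
chr13:68162127-68162399, minus strand: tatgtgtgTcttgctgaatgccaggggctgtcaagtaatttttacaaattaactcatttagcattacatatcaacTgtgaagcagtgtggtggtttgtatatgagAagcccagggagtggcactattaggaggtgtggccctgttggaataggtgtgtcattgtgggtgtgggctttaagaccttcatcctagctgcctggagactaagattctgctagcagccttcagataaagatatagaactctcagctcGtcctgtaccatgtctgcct
The second kind is chr13:67154977-67155434, intergenic and 13.2 kb from Zfp759, the only member where H3K9me3 was called lower with the D2 segment on both backgrounds. Its first 300 bases are shown, with capitals for the 89 bases outside annotated repeats. The other 369 of the 458 bases of the region are masked as repeats in the reference.
chr13:67154977-67155276, plus strand: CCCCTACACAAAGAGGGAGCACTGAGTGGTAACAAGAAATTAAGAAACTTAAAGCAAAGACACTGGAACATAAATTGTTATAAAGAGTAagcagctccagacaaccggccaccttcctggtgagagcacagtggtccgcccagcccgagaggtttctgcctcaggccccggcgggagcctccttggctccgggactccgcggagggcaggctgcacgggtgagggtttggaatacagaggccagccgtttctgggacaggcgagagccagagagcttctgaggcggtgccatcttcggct

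Depth set the limits of the 2 marks. H3K9me3 libraries held 1487862 to 2559262 counts in regions, and 2010 to 4948 of these fell in the 302 members. H3K27ac libraries held 8735674 to 18272793 counts, with 11163 to 26638 in the members. Levels are given in CPM, counts scaled to library size with TMM factors, and a region is called where its adjusted p was under 0.05 (edgeR quasi-likelihood test, Benjamini-Hochberg over all tested regions of the table). For H3K9me3, 121 members had enough counts to be tested in the repeated libraries and 77 in the separate lines. For H3K27ac these numbers were 252 of 302 and 137 of 138. Replicate 1 of D2-13B6 stood apart from the other libraries of its line, with a chi-square per degree of freedom of 2.455 to 2.467 for H3K9me3 and 2.791 to 2.806 for H3K27ac, so values without it are given for the gene-free stretch and where leaving it out changed a call or moved a count most. Without it, 48 members of H3K9me3 and 114 of H3K27ac were called between D2-13B6 and B6. With it these counts were 46 and 92, beside 20.9% and 30.3% of regions called over the genome. The H3K27ac antibody was abcam ab4729 in the separate lines and Cell Signaling 8173S in the repeated libraries, and H3K27ac levels are not compared between the sets.

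In steps of 100 kb, the gain of H3K9me3 with the D2 segment was called in the windows of the gene-free stretch and in none of the other 26. Between B6-13D2 and B6, the 4 windows of the stretch were called higher and 1 of the other 26 windows, at 69.8 Mb, was called lower. Over the genome 0.211% of windows were called in this contrast. The window at 68 Mb held 55.9 CPM of H3K9me3 in B6 and 434.6 CPM in B6-13D2, with 289.8 CPM in D2 and 209 CPM in D2-13B6. The window before the stretch held 9.86 CPM in B6 and 3.8 CPM in B6-13D2, and the window after it held 52.6 and 76.2 CPM; neither was called. Between D2 and D2-13B6, 0 windows were called in H3K9me3 by edgeR or by DESeq2, with 7 at an unadjusted p under 0.05 in edgeR (0.76% called over the genome). For H3K27ac 20 of 30 windows were called between B6-13D2 and B6, 5 higher and 15 lower, against 24.7% of windows over the genome. The lower ones included 5 of the 10 windows from 67 to 68 Mb and 8 of the 10 from 69 to 70 Mb. With library totals in place of TMM factors, the H3K27ac median of all tested regions between B6-13D2 and B6 shifts to -0.20. Between D2 and D2-13B6, 6 windows were higher and 6 lower, against 18% called over the genome (7 and 7 without replicate 1 of D2-13B6, and 1 and 1 for H3K9me3). Among the separate lines 16 of 29 tested windows were called for H3K9me3 and 13 of 25 for H3K27ac, against 24.4% and 62.9%.

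**Figure D1:**
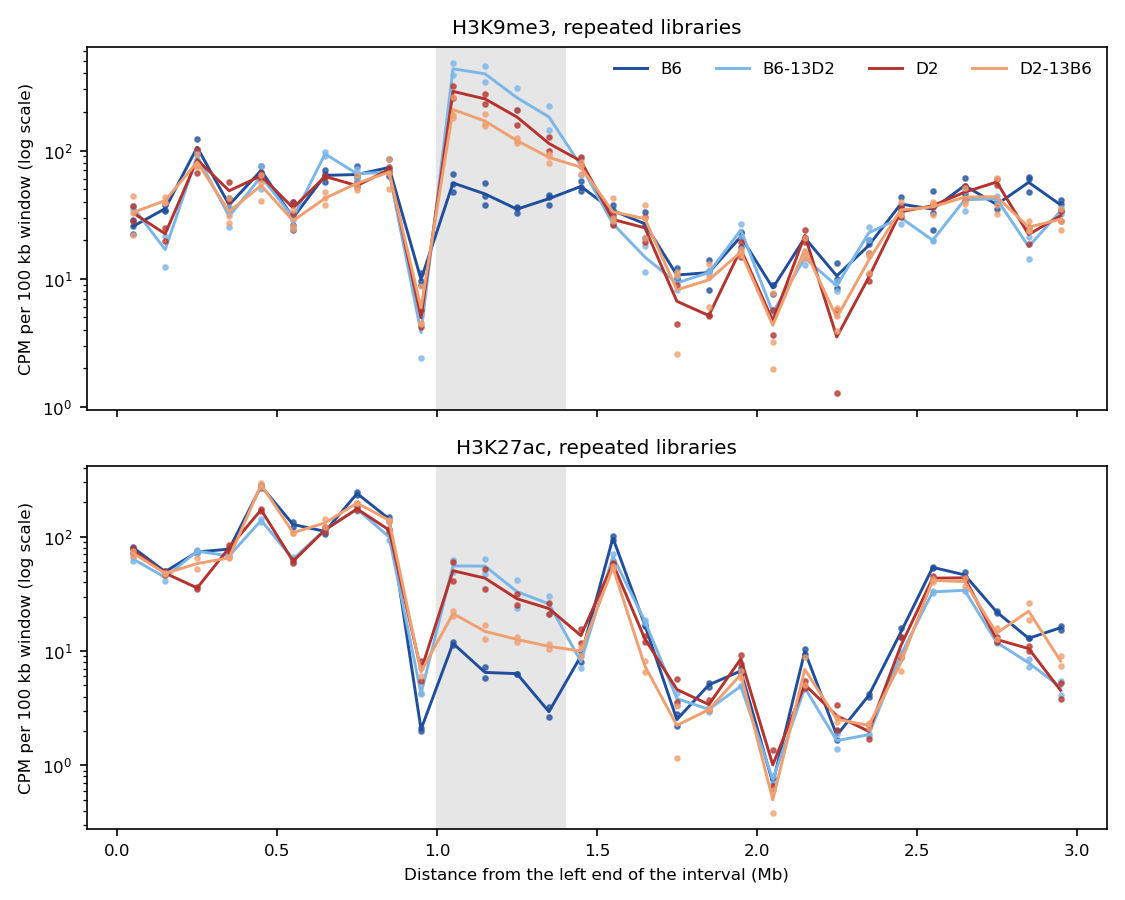
H3K9me3 (top) and H3K27ac (bottom) in the 30 windows of 100 kb, as summed CPM of the regions in a window on a log scale, against distance from the left end of the interval. Points are repeated libraries, lines join the means of a cell line, and the shaded band is the gene-free stretch, where B6 lies below the other 3 lines in both marks.

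At the gene-free stretch the order of the 4 lines in H3K9me3 was B6, D2-13B6, D2 and B6-13D2, with no overlap of libraries between neighbours. The summed H3K9me3 of the 33 regions was 263.7, 225.2 and 292.5 CPM in the B6 libraries. It was 730.3, 1009 and 860.3 CPM in the D2-13B6 libraries. The D2 libraries held 1312 and 1104 CPM, and the B6-13D2 libraries 1570 and 2069 CPM. Relative to B6, the mean was thus 6.99-fold in B6-13D2, 4.64-fold in D2 and 3.33-fold in D2-13B6 (3.59-fold without replicate 1 of D2-13B6). The 269 other members did not show this order. Their summed H3K9me3 was 1443 ± 64 CPM in B6 (SD, n = 3), 1284 ± 4.72 CPM in B6-13D2 (SD, n = 2), 1319 ± 2.57 CPM in D2 (SD, n = 2) and 1271 ± 34.7 CPM in D2-13B6 (SD, n = 3).

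Region by region, all 33 were called higher in B6-13D2 than in B6, out of 35 members called higher and 5 called lower among 121 tested. Over the genome 1.69% of tested regions were called in this contrast and 1.23% were called higher. The median log2 fold change was 2.85, with a range from 1.37 to 4.57, against a median of -0.03 over all tested regions. The stretch was singled out with these values known, so the counts describe it and are not independent evidence. Between D2 and D2-13B6 none of the 33 was called, with 15 at an unadjusted p under 0.05 and a median log2 fold change of 0.47 (edgeR; 0.35 and again 0 called without replicate 1 of D2-13B6). DESeq2 called 0 of them, with 9 at an unadjusted p under 0.05. Members called in this contrast numbered 2 of 121, against 2.2% over the genome (1 without D2 replicate 2 and 3 without replicate 1 of D2-13B6). All 33 were higher in D2 by sign, but the rest of chromosome 13, outside 65 to 70 Mb, was also higher in D2 than in D2-13B6 with a median of 0.22. The difference between these 2 contrasts of lines was itself called at 31 of the 33 regions, with a median of 2.4 (interaction term of edgeR; 0.389% of regions called over the genome), and at 33 without replicate 1 of D2-13B6. Among windows it was called in the 4 of the stretch, against 0.0253% over the genome.

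H3K27ac was higher in the same 33 regions in B6-13D2 than in B6. The summed CPM was 27.1 and 27 in B6, 60.8 and 67.3 in D2-13B6, 124.7 and 169.7 in D2, and 141 and 203.7 in B6-13D2. The order of means was as for H3K9me3, but here D2 and B6-13D2 overlapped. The D2-13B6 line differed from D2 in this mark, as 30 of 33 regions were called higher in D2 than in D2-13B6, with a median log2 fold change of 1.18 (1.1 and again 30 called without replicate 1). That count depended on D2 replicate 2, without which 8 of the 33 were called. DESeq2 called 9 of the 33 in that contrast. Between B6-13D2 and B6 all 33 were called higher, with a median of 3.25, while 7.6% of tested regions were called higher over the genome. Members called in these contrasts numbered 82 and 118 of 252, against 6.67% and 13% over the genome. Without replicate 2 of D2, 42 members were called between D2 and D2-13B6, and DESeq2 called 41 there and 71 between B6-13D2 and B6. The median for chromosome 13 outside 65 to 70 Mb was 0.18 between D2 and D2-13B6 and 0.002 between B6-13D2 and B6. The interaction was called at 23 of 33 regions (5.3% over the genome), all with the larger difference on the B6 background (27 without replicate 1 of D2-13B6, and 5 with DESeq2, which gave 13 of them an adjusted p). In the repeated libraries as a whole, D2 differed from B6 at 45 of 121 members in H3K9me3 and at 123 of 252 in H3K27ac, against 11.3% and 28.1% over the genome. D2-13B6 differed from B6 at 46 and 92 members, against 20.9% and 30.3% (52 for H3K27ac with DESeq2). D2 and B6-13D2, which both carry D2 sequence in the segment, differed at 10 and 35 members, against 8.22% and 26.1%. These counts were unstable. The 10 for H3K9me3 became 1 without B6-13D2 replicate 2, 2 without D2 replicate 2, 23 without replicate 1 of D2-13B6 and 4 with library totals. The 35 for H3K27ac became 20 without B6-13D2 replicate 2, 21 without D2 replicate 2 and 13 with DESeq2.

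**Figure D2:**
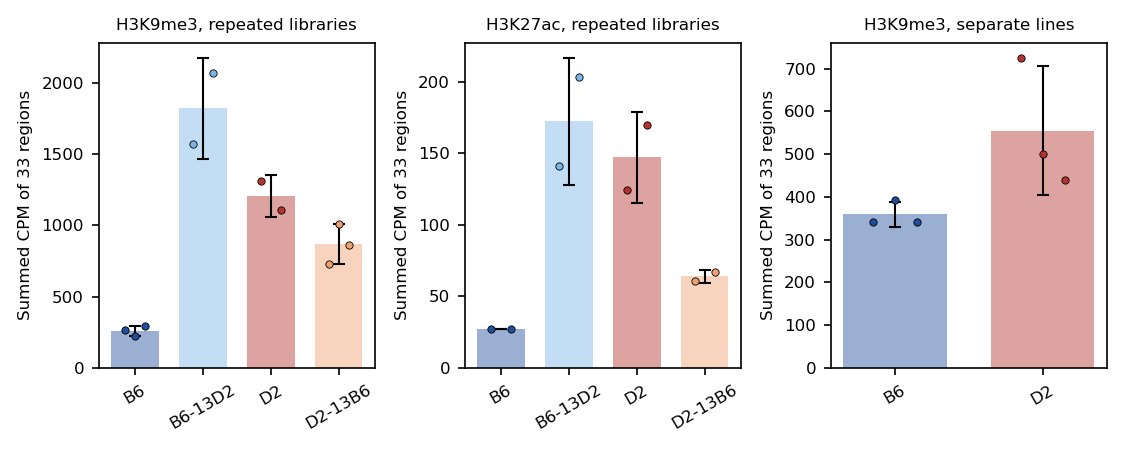
Summed CPM of the 33 regions of the gene-free stretch by line, for H3K9me3 (left) and H3K27ac (middle) in the repeated libraries and for H3K9me3 in the separate lines (right). Bars are means, points are samples and error bars are SD; B6 is lowest in each panel, and B6-13D2 has the highest mean in the repeated libraries.

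The levels within the stretch were more even in the 3 lines with higher levels than in B6, where each region had few counts. In B6-13D2 the upper quartile of H3K9me3 over the 33 regions was 1.19 times the lower quartile, around a median of 54.4 CPM per region. In B6 the same ratio was 2.15, around a median of 6.64 CPM. It was 1.24 in D2 and 1.29 in D2-13B6. For H3K27ac the ratios were 1.19 in B6-13D2, 1.23 in D2, 1.43 in D2-13B6 and 3.48 in B6. Regions were 193 to 1120 bp wide. Spearman's rho of level with width across the 33 regions, which share libraries, was 0.29 for H3K9me3 and 0.61 for H3K27ac in B6-13D2. The level changed between neighbouring regions at the left edge and less so at the right edge. The last region before 68 Mb held 2.38 ± 0.50 CPM of H3K9me3 in B6-13D2 (SD, n = 2), and the first one after it, chr13:68015606-68015906, held 23.8 ± 3.67 CPM. On the right, the region chr13:68389598-68389968 held 38.4 ± 9.82 CPM in B6-13D2 and 7.61 ± 2.84 CPM in B6. The next region, chr13:68426788-68427434, held 30.6 ± 7.47 and 23.7 ± 3.6 CPM. In H3K27ac this next region was still lowest in B6, at 0.77 ± 0.02 CPM. It held 2.66 ± 0.80 CPM in B6-13D2, 3.49 ± 0.37 CPM in D2 and 4.86 ± 0.60 CPM in D2-13B6 (SD, n = 2 each).

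**Figure D3:**
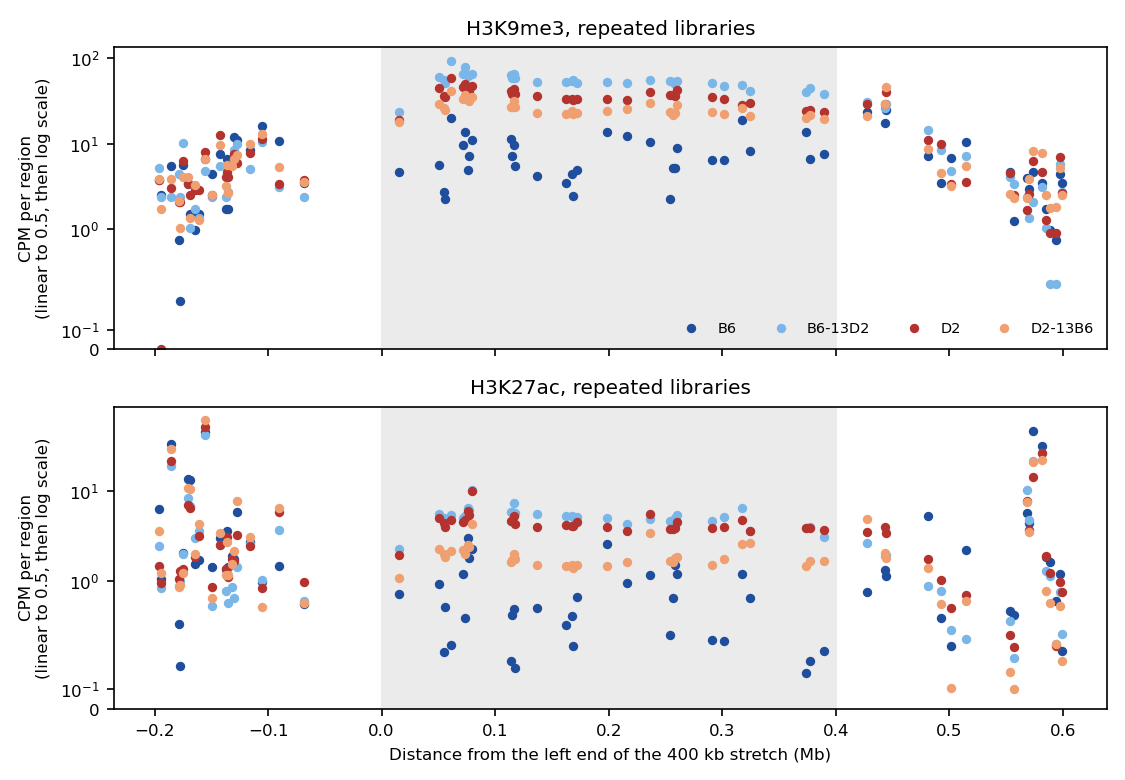
Mean CPM of each region in and around the gene-free stretch (shaded) in the 4 repeated lines, for H3K9me3 (top) and H3K27ac (bottom), against distance from the left end of the stretch. Within the band the other 3 lines lie above B6 at all 33 regions for H3K9me3. For H3K27ac B6-13D2 and D2 do so, while every D2-13B6 sample is above B6 at 30 of 33.

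The stretch differs from the rest of the interval in sequence. All 33 of its regions are intergenic, against 42.7% of the 302 members. A copy of at least 85% identity over at least 80% of the region was found elsewhere on chromosome 13 from 60 to 75 Mb for 32 of the 33, and one of at least 95% identity for 23. Among the 129 members from 67 to 68 Mb these counts were 38 and 9. They were 10 and 5 among the 46 members between the stretch and 69 Mb, and 2 and 1 among the 94 from 69 to 70 Mb. The median share of 75-base words, the read length, that occur once in the reference was 79.3% in the stretch and 100% in the 302 members. Reads from near-identical copies may have been assigned to any of them, so a value may belong to the family of copies rather than to one position. The 10 regions with at least 90% single words were all called higher in B6-13D2 than in B6, with a median log2 fold change of 2.42 for H3K9me3. The 23 others, also all called higher, had a median of 3.02. The amount of DNA at the stretch in each line was not measured here, as no unenriched input was used, and its part in these differences was not tested.

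The largest gains of H3K9me3 in B6-13D2 over B6 lay in this stretch. At chr13:68253878-68254126, H3K9me3 was 1.45, 3.04 and 2.21 CPM in B6 and 45.2 and 64.3 CPM in B6-13D2. The log2 fold change was 4.57 ± 0.35 (SE, adjusted p = 2.08e-23, edgeR). At chr13:68055421-68055693, whose sequence is shown above, it was 2.22 ± 0.71 CPM in B6 (SD, n = 3) and 52 ± 7.8 CPM in B6-13D2 (SD, n = 2). D2-13B6 libraries held 18, 33.6 and 22.5 CPM there, and D2 libraries 41.2 and 30.2 CPM, so these 2 lines overlapped. The third, chr13:68168317-68168590, rose by 4.43 ± 0.35 (log2, SE, adjusted p = 3.9e-23, edgeR). For H3K27ac the 3 largest gains were at chr13:68113554-68113908 (4.51 ± 0.38), chr13:68117460-68117800 (4.46 ± 0.39) and chr13:68373912-68374243 (4.12 ± 0.42), each log2 ± SE. Their levels were between 0.18 and 0.24 CPM in B6 and between 3.85 and 5.81 CPM in B6-13D2. Per kb of region, the 3 members with the most H3K9me3 over all repeated libraries were also in the stretch, led by chr13:68071494-68071686 at 183.7 CPM per kb. The same 3 led in B6-13D2, D2 and D2-13B6 each, but in B6 only the first did, and the next 2 lay outside the stretch, at 47 and 42.3 CPM per kb.

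Among separate lines the strain difference at the stretch was smaller. The 33 regions summed to 342.3, 392.6 and 341.5 CPM of H3K9me3 in the 3 B6 lines and to 724.7, 499.1 and 439.7 CPM in the 3 D2 lines, which did not overlap. Of 22 regions tested, 8 were called higher in D2 and none lower, with a median log2 fold change of 0.65. This share is near the 34.7% of regions called over the genome. Of the 4 windows of the stretch, 3 were called higher in D2. The one at 68.3 Mb was not, with 62.8 CPM in B6 and 59 CPM in D2 (adjusted p = 0.773, edgeR). Over all members 21 were called higher and 12 lower of 77, against 34.7% called over the genome (17 and 18 without B6 replicate 1). For H3K27ac the counts were 32 and 36 of 137, near the 49.3% called over the genome. One line of each strain was also used in the repeated set. Relative to the other members, the stretch held 0.162 in the separate-line library of B6 line 5-1 and 0.158 to 0.21 in its repeated libraries. For D2 line 5-5 the ratio was 0.255 in the separate-line library and 0.839 to 0.994 in the repeated ones, 3.29 to 3.9 times as much. The high level in D2 line 5-5 was thus measured in its repeated libraries and not in its separate-line library. What sets these libraries apart was not tested. The H3K27ac list of the separate lines has 3 regions there, of which chr13:68078772-68080473 rose from 1.54, 2.33 and 1.77 CPM in B6 to 9.25, 6.73 and 6.92 CPM in D2 (log2 fold change 2.02 ± 0.18, adjusted p = 2.53e-14, edgeR).

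The 2 congenic contrasts use no library in common, although they share the estimate of spread. For H3K27ac, 65 of the 252 tested members were called in both, 37 of them higher with the D2 segment and 28 lower, and 0 in opposite directions. Without D2 replicate 2 the number called in both was 34, 14 higher and 20 lower, and with DESeq2 it was 28, 11 higher and 17 lower. Over the genome 2.66% of tested regions were called in both, and 15.4% of those went in opposite directions. The 37 higher ones comprised 30 of the stretch (8 without D2 replicate 2 and 8 with DESeq2) and 7 between 67 and 68 Mb, and 23 of the 28 lower ones lay between 67 and 68 Mb. For H3K9me3 the count was 1, the region near Zfp759, against 0.69% over the genome. In the part from 67 to 68 Mb, 40 of 126 tested regions were lower and 17 higher in H3K27ac on the B6 background, beside 13% called over the genome. On the D2 background 29 were lower and 15 higher, beside 6.67%. DESeq2 gave 25 lower and 7 higher on the B6 background and 23 lower and 6 higher on the D2 background.

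**Figure D4:**
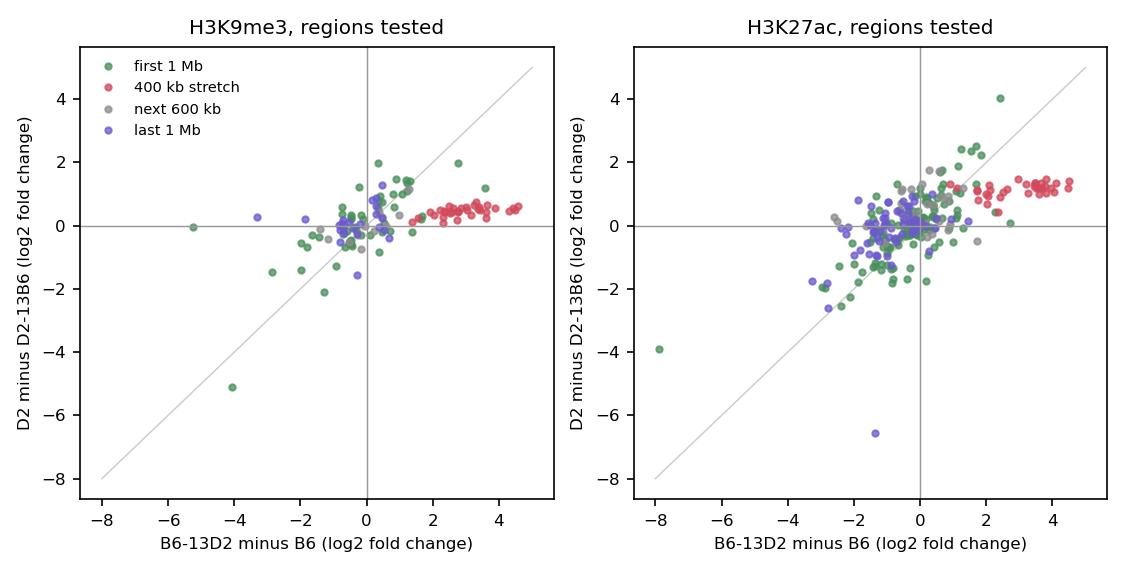
Log2 fold change with the D2 segment on the D2 background (vertical) against that on the B6 background (horizontal) for every tested region of the interval, coloured by position, for H3K9me3 (left) and H3K27ac (right). The grey diagonal marks equal change; all 33 regions of the 400 kb stretch lie below it for H3K9me3 and 31 of them for H3K27ac, while many of the first 1 Mb lie along it for H3K27ac.

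Among zinc finger genes, 5 starts carried less H3K27ac with the D2 segment on both backgrounds, those of Rsl1, Zfp459, Zfp874a, Zfp729b and Zfp273. A region within 1 kb of the start could be tested for 23 of the 25 genes. On the B6 background 2 starts were called higher and 5 lower, and on the D2 background 1 higher and 6 lower, with medians of -0.05 and 0.003 over the list. The 7 of 23 in each contrast stand beside 13% and 6.67% of regions called over the genome, and the remaining tested starts did not pass the test. Zfp459 had the highest H3K27ac of the tested starts in B6, at chr13:67420063-67423319. H3K27ac there was 92.5 and 105 CPM in B6 and 46.5 and 40 CPM in B6-13D2. It was 58 and 53.4 CPM in D2 and 121 and 141 CPM in D2-13B6, so both lines with the B6 segment lay above both with the D2 segment. The log2 fold change was -1.18 ± 0.13 on the B6 background (SE, adjusted p = 2.72e-09, edgeR) and -1.23 ± 0.13 on the D2 background (adjusted p = 4.42e-10, edgeR).

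The neighbouring gene Zfp874a showed the same division of lines, with 18.1 and 21.4 CPM in B6, 7.73 and 7.2 CPM in B6-13D2, 10.7 and 11.5 CPM in D2 and 24.7 and 25.4 CPM in D2-13B6. Its change was -1.38 ± 0.16 and -1.19 ± 0.15 (log2, SE) on the B6 and D2 backgrounds. Other regions of the gene changed by more or by less. The coding exon region chr13:67425310-67426226 changed by -0.82 and -1.33 on the B6 and D2 backgrounds, and 2 intronic regions by -2.95 and -1.95 and by -2.86 and -1.98 (log2). At the first intronic region, chr13:67430432-67431296, H3K27ac went from 15.2 ± 0.85 CPM in B6 to 2.04 ± 0.51 CPM in B6-13D2, and was 12.1 ± 0.22 CPM in D2-13B6 against 3.18 ± 0.33 CPM in D2 (SD, n = 2 each). At the start of Rsl1, H3K27ac was 9.07 and 8.4 CPM in B6 and 12.9 and 12.7 CPM in D2-13B6, against 4.79 and 3.78 CPM in B6-13D2 and 6 and 4.55 CPM in D2. Zfp729b fell by 1.19 ± 0.16 on the B6 background and by 1.42 ± 0.16 on the D2 background on the log2 scale. Zfp273 fell by 0.80 ± 0.14 and by 0.43 ± 0.14, the latter near the threshold (adjusted p = 0.0455, edgeR). The latter was not called in 7 alternatives, among them the one without replicate 1 of D2-13B6 (adjusted p = 0.114, edgeR). The other 4 starts were called lower on both backgrounds in every alternative that tested them.

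Starts that moved otherwise were few. Zfp455 and Zfp458 were called higher in B6-13D2 than in B6, by 0.65 ± 0.19 and 1.22 ± 0.30 (log2, SE), and neither was called between D2 and D2-13B6. Without B6 replicate 3 both calls were lost (adjusted p = 0.0883 and 0.0558, edgeR), and DESeq2 did not call Zfp455 (adjusted p = 0.055). Without replicate 1 of D2-13B6, Zfp458 was also called higher in D2 (1.88 ± 0.41, adjusted p = 0.000215, edgeR). Zfp738 differed by -0.93 ± 0.19 between D2 and D2-13B6 and was the only one of the 23 starts where the interaction was called (adjusted p = 0.00704, edgeR; 0.0522 without D2 replicate 2). At Zfp456, whose start region is shared with the gene Gm28041, D2 was higher than D2-13B6 by 0.73 ± 0.18, which DESeq2 did not call. Zfp457 was not called in that contrast (0.63 ± 0.22, adjusted p = 0.0709, edgeR). Some alternatives did call it higher in D2, such as unsummed libraries (adjusted p = 0.00364, edgeR). Among the separate lines, 11 of 22 tested starts were called, 6 higher and 5 lower in D2, near the 49.3% over the genome, and 4 of the 5 starts that were lower on both backgrounds were called lower in D2. The region at the start of Zfp459, which in this list is 25981 bp wide and also covers exons of Zfp874a, changed by -0.69 ± 0.07 (SE, adjusted p = 5.07e-13, edgeR). Zfp729b changed by -0.41 ± 0.09 and Zfp874a by -0.28 ± 0.09, and Zfp273 was called at -0.20 ± 0.08. Rsl1 differed by 0.15 ± 0.10 there and was not called (adjusted p = 0.222, edgeR).

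**Figure D5:**
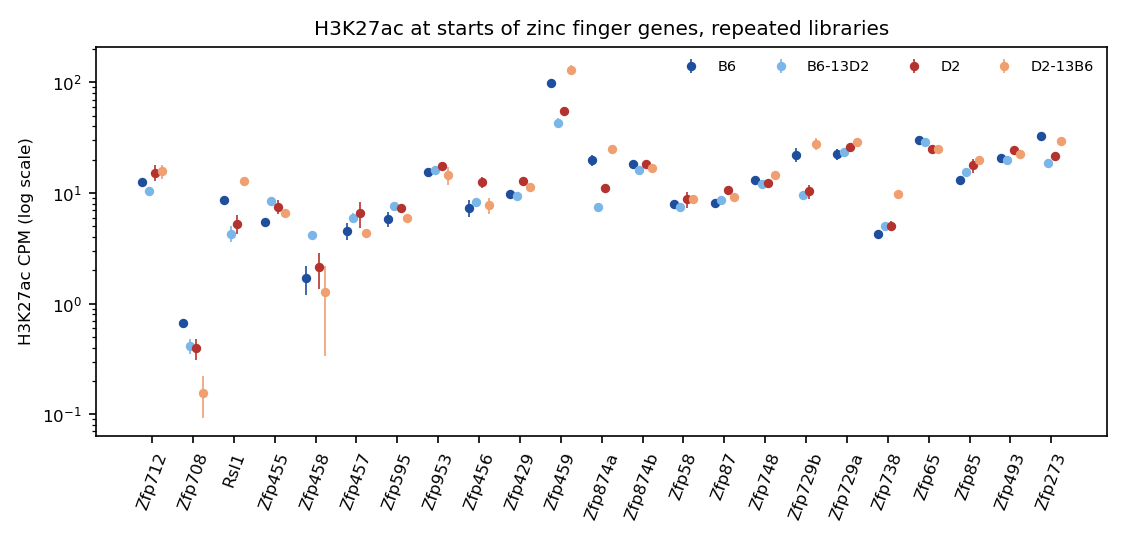
H3K27ac at the region within 1 kb of the start of each tested zinc finger gene, in order along the chromosome, as mean CPM on a log scale with SD (n = 2 per line). Rsl1, Zfp459, Zfp874a, Zfp729b and Zfp273 are lower in B6-13D2 and D2 than in B6 and D2-13B6, while most of the remaining starts were called in neither contrast.

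The promoters of these genes share a short motif. RefSeq sequences of 250 bases before the annotated start (GRCm38.p6) are given for 3 genes whose H3K27ac was lower with the D2 segment and for Zfp58, whose start was called in neither contrast. Capitals mark the part that blastn aligned to the promoter of Zfp874a (for Zfp874a, the part that was aligned by others).
Rsl1: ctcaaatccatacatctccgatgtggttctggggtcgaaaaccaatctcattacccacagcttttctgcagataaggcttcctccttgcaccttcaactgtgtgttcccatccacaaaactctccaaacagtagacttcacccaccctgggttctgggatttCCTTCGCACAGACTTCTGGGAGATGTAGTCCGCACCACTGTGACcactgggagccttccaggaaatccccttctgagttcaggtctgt
Zfp874a: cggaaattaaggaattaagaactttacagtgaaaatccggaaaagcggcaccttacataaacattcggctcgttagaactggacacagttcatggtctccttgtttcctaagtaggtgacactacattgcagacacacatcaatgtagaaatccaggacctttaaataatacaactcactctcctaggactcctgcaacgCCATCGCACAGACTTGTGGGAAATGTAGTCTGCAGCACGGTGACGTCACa
Zfp459: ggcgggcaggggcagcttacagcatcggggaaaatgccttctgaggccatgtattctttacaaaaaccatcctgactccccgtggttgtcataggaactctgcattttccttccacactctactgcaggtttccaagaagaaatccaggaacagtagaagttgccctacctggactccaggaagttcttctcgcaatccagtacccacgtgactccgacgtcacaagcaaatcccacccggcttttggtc
Zfp58: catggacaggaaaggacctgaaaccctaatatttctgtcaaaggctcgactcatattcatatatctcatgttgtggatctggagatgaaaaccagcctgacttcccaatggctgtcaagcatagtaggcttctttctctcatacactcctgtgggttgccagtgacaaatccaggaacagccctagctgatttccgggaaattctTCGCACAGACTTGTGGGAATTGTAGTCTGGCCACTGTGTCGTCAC
Rsl1 matched Zfp874a with 86.4% identity over 44 bases, Zfp58 matched it with 87% over 46 bases, and Zfp459 gave no alignment. A 13-letter pattern with 2 free letters, TGGGANNTGTAGT, was the most frequent of those that could be cut from the Zfp874a promoter and searched on both strands of the zinc finger promoters, 300 bases each. Since it was chosen for being frequent there, its share among them is a description. It was found in the promoters of 20 of the 22 zinc finger genes that matched RefSeq. It was in 1 of 11 other genes of the interval that matched, and in 1.47% of all 32851 promoters of that length. The motif was present in Rsl1, Zfp874a and Zfp273, whose starts were lower, in Zfp58, whose start was not called, and not in Zfp459. Zfp729b, Zfp87 and Zfp493 were not matched.

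Regions over exons of the zinc finger genes numbered 48. In H3K27ac, 6 were higher and 12 lower on the B6 background, and 4 were higher and 10 lower on the D2 background, beside 13% and 6.67% of regions called over the genome. H3K9me3 could be tested at 19 of them. Of these, 1 was called lower on the B6 background and 0 on the D2 background (edgeR), beside 1.69% and 2.2% of regions called over the genome. At such shares few calls would be found among 19 regions, so the counts say little about these exons. The called region was chr13:67791698-67792714, over a coding exon of Zfp493. Its H3K9me3 was 25.4, 32.7 and 19.2 CPM in B6 and 4.11 and 8.8 CPM in B6-13D2, a log2 fold change of -1.98 ± 0.35 (SE, adjusted p = 1.71e-05, edgeR). The D2 libraries held 4.48 and 3.88 CPM and the D2-13B6 libraries 19.8, 6.72 and 8.43 CPM, where the highest was replicate 1. In the separate lines it was lower in D2 by -2.23 ± 0.27 (adjusted p = 1.63e-08, edgeR).

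Levels at some single regions grouped by the origin of the segment. The region near Zfp759 whose sequence opens this account, chr13:67154977-67155434, held 18.2, 19 and 19.2 CPM of H3K9me3 in B6 and 22.5, 17.2 and 14 CPM in D2-13B6. Against this, B6-13D2 held 0.684 and 1.35 CPM and D2 0 and 0.775 CPM. On counts, the fold was 18.4 between B6 and B6-13D2 (76 against 3 counts, 95% interval 6.06 to 91.1) and 42.2 between D2-13B6 and D2 (68 against 1 count, interval 7.33 to 1693). These are exact binomial intervals, which cover counting error only. H3K27ac was lower there too. It was 2.06 and 2.02 CPM in B6 and 0 in both B6-13D2 samples, at least 9.78-fold lower against a floor of 3 counts per library. In D2-13B6 it was 0.915 and 0.555 CPM, and in D2 0 and 0.114 CPM. Both marks were thus near 0 in B6-13D2 and D2. Reads of every line were counted on the same reference, mm10. Whether D2 carries this sequence in a form that can be aligned to it was not tested. In the separate lines H3K9me3 was 26.2 ± 8.21 CPM in B6 and 3.21 ± 0.83 CPM in D2 (SD, n = 3 lines each; adjusted p = 2.59e-08, edgeR).

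At chr13:67797427-67799708, in an intron of the antisense transcript 4930525G20Rik and 4.91 kb from Zfp493, the 2 marks went opposite ways. H3K27ac was 62.2 and 71.9 CPM in B6 and 47.9 and 55.1 CPM in D2-13B6, against 18.9 and 17.7 CPM in B6-13D2 and 14.8 and 15.1 CPM in D2. It fell by 1.86 ± 0.13 and 1.79 ± 0.14 on the log2 scale. H3K9me3 in the separate lines was 7.39, 3.26 and 5.13 CPM in B6 and 69.9, 66.7 and 70.7 CPM in D2, the largest of the called differences among members whose strains did not overlap (log2 fold change 3.68 ± 0.28, adjusted p = 1.03e-13, edgeR). In the repeated libraries H3K9me3 was 5.43 ± 0.42 CPM in B6 and 12.6 ± 3.28 CPM in B6-13D2, and 4.38 ± 0.6 CPM in D2-13B6 and 12 ± 1.73 CPM in D2. Neither difference was called (adjusted p = 0.119 and 0.0563, edgeR).

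H3K27ac rose with the D2 segment at chr13:67703961-67704148, 188 bp wide, intergenic and 1.16 kb from Zfp65. It was 0.203 and 0.166 CPM in D2-13B6 and 3.33 and 2.73 CPM in D2, 17.5-fold by counts (84 against 5, 95% interval 7.2 to 55.2). In B6-13D2 it was 2.56 and 3.6 CPM against 0.602 and 0.448 CPM in B6. Words of 75 bases that occur once in the reference make up 76.3% of this region, and 1 copy of at least 95% identity was found. It is 1 of 7 members between 67 and 68 Mb called higher on both backgrounds. The other 6 include coding exon regions of Zfp457 (1.70 and 1.31, log2) and of Zfp874b (1.25 and 2.42).

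From 69 to 70 Mb, where the genes are not zinc finger genes, H3K27ac was lower in B6-13D2 than in B6. Of 63 tested regions 21 were called lower and 1 higher, with a median log2 fold change of -0.95, beside 13% called over the genome. Without B6 replicate 3 this became 13 lower and 1 higher, and DESeq2 gave 3 lower and 1 higher of 16 with an adjusted p. D2-13B6 relative to B6 gave 17 lower and 4 higher with a median of -0.64, near the 30.3% called over the genome. D2 relative to B6 gave 16 lower and 4 higher with a median of -0.70, near 28.1%. With DESeq2 these 2 contrasts gave 3 lower and 3 higher, and 5 lower and 3 higher. These 3 contrasts share the B6 libraries. D2 relative to D2-13B6 gave 4 lower and 0 higher with a median of -0.01, near 6.67%. Over the whole interval, 13 starts of the 16 other protein-coding genes could be tested. Ube2ql1, a gene of the ubiquitin-conjugating enzyme family that lies from 69 to 70 Mb, was called lower in B6-13D2. So were Gm10037 and BC048507, which lie from 67 to 68 Mb, and none was higher. On the D2 background Gm10037 was lower and Gm28041, also from 67 to 68 Mb, higher. These calls among 13 starts stand beside 13% of regions called over the genome on the B6 background and 6.67% on the D2 background. Near the end of the interval, chr13:69995310-69996477 was lower with the D2 segment on both backgrounds, by -2.78 ± 0.24 and -2.61 ± 0.30 (log2, SE). Its H3K27ac was 9.43 and 11 CPM in B6, 4.37 and 6.44 CPM in D2-13B6, 1.4 and 1.57 CPM in B6-13D2 and 0.722 and 1.25 CPM in D2.

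At 1 region between 69 and 70 Mb each mark was high in a single line. At chr13:69881662-69883616, intergenic and 65.6 kb from Med10, which encodes a subunit of the Mediator complex, H3K9me3 was high in B6 alone. It was 66.1, 54 and 66.3 CPM in B6, 7.53 and 4.74 CPM in B6-13D2, 10.7 and 7.75 CPM in D2, and 8.09, 4.48 and 9.83 CPM in D2-13B6. H3K27ac was high in D2-13B6 alone, at 17.2 and 13.3 CPM, against 0.111 and 0.227 CPM in D2, 0.233 and 0.738 CPM in B6-13D2, and 1.1 and 1.01 CPM in B6. The fold of D2-13B6 over D2 was 98.3 by counts (409 against 4, 95% interval 38.1 to 362.7). The interaction was called in both marks, at -3.61 ± 0.57 for H3K9me3 and 5.2 ± 0.8 for H3K27ac (log2, SE, adjusted p = 9.17e-06 and 2.91e-05, edgeR). Since the sequence of D2-13B6 here is not known, this is a difference between pairs of lines. Among the separate lines H3K9me3 was 61.3 ± 11.6 CPM in B6 and 24.4 ± 6.95 CPM in D2 (SD, n = 3 each).

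Genes of the silencing pathway that acts on such loci were compared by H3K27ac at their starts. All 16 listed genes had a tested region within 1 kb of a start. The lowest, at Dnmt1, held 1.29 CPM in the repeated libraries. In the separate lines, with their own region list and antibody, the Dnmt1 start held 57.4 CPM. Between B6-13D2 and B6, Atrx, a chromatin remodeller, was higher by 0.76 and Suv39h2, an H3K9 methyltransferase, by 0.49 (log2, adjusted p = 0.00162 and 0.0363, edgeR), and none was lower. Between D2 and D2-13B6, 1 of 16 was called, as Cbx1, which encodes a heterochromatin protein 1, was lower by -0.42 (adjusted p = 0.0296, edgeR). Trim28 and Setdb1 were called in neither of these contrasts. In D2 relative to B6 they were higher by 0.68 and 0.57 (log2, adjusted p = 3.06e-05 and 0.00276, edgeR), and no listed gene was called lower. Over the genome 28.1% of regions were called between D2 and B6. The 2 of 16 and 1 of 16 stand beside 13% and 6.67% called over the genome. The cells carried H3K27ac at the starts of embryonic stem cell genes, with a median of 96.5 CPM over 8 listed genes in the repeated libraries. The lowest there was Esrrb at 0.302 CPM, which was not tested. In the separate lines, with their own region list and antibody, the Esrrb start held 251.4 CPM. Of 7 stem cell genes tested, Tfcp2l1 was higher in B6-13D2 than in B6 by 0.41 (adjusted p = 0.0165, edgeR), beside 13% called over the genome. Marker genes of other cell types were low, at 1.83 to 5.24 CPM for primitive endoderm, 0.825 to 9.71 CPM for trophoblast, 0.696 to 5.67 CPM for neuroectoderm and 1.42 to 5.94 CPM for fibroblast feeders. All of them were tested, 4, 4, 3 and 4 genes in this order. Col1a2, Cdx2 and Gata3 were called higher and Gata4 and Hand1 lower in B6-13D2 than in B6, beside 13% called over the genome. Cdx2 and Hand1 were lower in D2 than in D2-13B6, beside 6.67%. Their part in the H3K27ac differences above was not tested.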

How the data were processed

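Fixed chromatin from mouse embryonic stem cells was digested with MNase, precipitated and sequenced with reads of 75 bases, per the labels' protocols. The authors deposited whole-number read counts per region, not normalized, in 4 tables. Per the submitters' processing notes, the tools were Trimmomatic 0.39, HISAT2 2.2.1, MACS 1.4.2, bedtools 2.9.2 and edgeR, and the build was mm10. Reads of all 4 genotypes were thus counted on 1 reference, and unequal alignment of B6 and D2 reads was not tested. No unenriched input was used here. Of the columns, 2 matched no sample label and were not used, and the other 34 libraries fell into 12 groups. Regions and sums over 100 kb were tested separately with edgeR 4.0.16 (R 4.3.3), using TMM factors, filterByExpr (minimum count 10, minimum total 15) and quasi-likelihood F tests, without replicate blocks. All lines of a set shared 1 fit. P-values were adjusted by Benjamini-Hochberg over the whole table and called under 0.05. In H3K27ac the pair of libraries of each line with a chi-square per degree of freedom of at most 1 was summed. Alternatives were library totals, RLE factors, a mean of at least 20 counts, no filter, DESeq2 1.42.0, the replicate block, unsummed libraries and leaving out each library. Same-numbered samples did not deviate together in every pair, so the numbers were not taken as pairs.

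The interval and the gene lists were chosen with earlier results of these data known. Named regions are the 3 called members with the largest change in each direction whose libraries do not overlap, the 3 with the largest interaction, the 3 highest per kb, and the first and last called in the gene-free stretch. Regions outside this rule, such as the one over Zfp457 and the second intronic one of Zfp874a, were named after their values were seen. Genes came from GENCODE M21, and starts of regions were raised by 1 to give 1-based positions. Promoters and region sequences came from RefSeq and GRCm38.p6. Copies were searched with blastn 2.17.0 and counted at an identity of at least 85% over at least 80% of a region. The fits were tested on simulated data. Changes were recovered reliably only for regions averaging at least 20 counts, and less often for shallow regions, above all in H3K9me3. Counting intervals cover 95% and, like the floor of 3 counts per library, cover counting error only, since reads carried no molecular identifiers.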

Additional observations from a re-analysis of the deposited data

Results flagged for a closer look

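The difference between B6-13D2 and B6 was not the same as that between D2 and D2-13B6 by a test of the difference itself, the interaction term of edgeR (B6-13D2 minus B6 less D2 minus D2-13B6). Which sequence D2-13B6 carries at the gene-free stretch and at 69 to 70 Mb is not known here, so there this sets pairs of lines side by side. In H3K9me3 it was called at 32 members, 31 of them in the gene-free stretch, and in 4 windows of 100 kb, against 0.389% of regions and 0.0253% of windows over the genome. The 3 largest values were 3.988 at chr13:68055421-68055693, 3.934 at chr13:68253878-68254126 and 3.88 at chr13:68168317-68168590, on the log2 scale.

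In H3K27ac the interaction was called at 44 members and in 14 windows, against 5.3% and 14.7% over the genome. Of the members, 34 were higher and 10 lower. The 3 largest values were 5.196 at chr13:69881662-69883616, where D2-13B6 stood above the other 3 lines, 3.273 at chr13:68117460-68117800 and 3.105 at chr13:68113554-68113908. Replicate 1 of D2-13B6 stands apart from its line, and without it 69 members and 17 windows were called. The count of members fell to 32 without B6-13D2 replicate 2 and also without D2 replicate 2, and to 14 with DESeq2. The count of windows fell to 8 without B6 replicate 3 and also without D2 replicate 2, and to 9 without B6-13D2 replicate 2. The repeated libraries hold 1 line per genotype, so line and genotype cannot be told apart.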

How the results depend on the processing

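Counts of called members or windows stayed within 1.5 times the reported value in 304 alternatives and moved further in 35. No alternative changed the sign of a named region, but in 24 alternatives the balance of higher and lower calls turned, for 9 of 22 counts. The cause of the shifts was not tested. Of 741 alternatives for 47 named regions and contrasts, 731 kept their side of the threshold and 10 lost the call. In H3K9me3 a mean of at least 20 counts and DESeq2 gave 16 and 13 members among the separate lines (33 reported), 0 and 1 between D2 and D2-13B6 (2 reported), and 3 and 2 between D2 and B6-13D2 (10 reported, 4 with library totals). DESeq2, which leaves adjusted p-values of shallow regions undefined, gave for H3K27ac 71 members between B6-13D2 and B6, 41 between D2 and D2-13B6, 14 for the interaction, 13 between D2 and B6-13D2 and 52 between D2-13B6 and B6. Unsummed libraries gave 68 for the interaction and 54 between D2 and B6-13D2. For windows of H3K9me3 among the separate lines, DESeq2 gave 7 of the 16 reported.

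Leaving out 1 library at a time gave ranges. For H3K9me3 members these were 1 (without D2 replicate 2) to 3 (without D2-13B6 replicate 1) between D2 and D2-13B6, and 1 (without B6-13D2 replicate 2) to 23 (without D2-13B6 replicate 1) between D2 and B6-13D2. For H3K9me3 windows they were 8 (without D2 replicate 1) to 12 among the separate lines, and 0 to 2 (without D2-13B6 replicate 1) between D2 and D2-13B6. For H3K27ac members they were 42 (without D2 replicate 2) to 83 between D2 and D2-13B6, 32 to 69 (without D2-13B6 replicate 1) for the interaction, and 20 (without B6-13D2 replicate 2) to 46 between D2 and B6-13D2. For windows of the H3K27ac interaction the range was 8 (without B6 replicate 3) to 17.

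With the replicate number as a block, H3K9me3 windows among the separate lines fell to 10. For H3K27ac the block was fitted to unsummed libraries, since the summed pairs join different numbers. There it gave 69 members for the interaction and 53 between D2 and B6-13D2, against 68 and 54 on the same libraries without it. No other count of members or windows under the block differed from the reported one by over 1.5 times. Correlations of same-numbered samples ran from -0.0669 to 0.163, so they share only a number.

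Scaling moved the split of calls over the genome. With library totals, calls higher in B6-13D2 than in B6 were 38.5% in place of 58.5% for H3K27ac, with a median of -0.20. The share went from 74.2% to 48.7% for the H3K27ac interaction, from 52.3% to 40.3% between D2 and B6 and from 56.8% to 40.2% between D2-13B6 and B6. In H3K9me3 it went from 49.8% to 61.5% among the separate lines, with a median of 0.16, from 34.7% to 45.3% between D2 and B6-13D2 and from 41.8% to 54.7% between D2-13B6 and B6. Given as higher and lower calls, H3K9me3 members went from 1 and 9 to 2 and 1 between D2 and B6-13D2 with a mean of at least 20 counts. H3K27ac members went from 48 and 34 between D2 and D2-13B6 to 15 and 26 with DESeq2 and 17 and 25 without D2 replicate 2. They went from 53 and 65 between B6-13D2 and B6 to 41 and 30 with DESeq2 and 51 and 50 without B6-13D2 replicate 2. The balance also turned for H3K9me3 members and windows among the separate lines, for H3K27ac members between D2 and B6, D2 and B6-13D2, and D2-13B6 and B6, and for windows of the H3K27ac interaction. At the depth of the H3K9me3 libraries, 121 of 302 members could be tested, and differences at the others were not detectable.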
